A study of Homo sapiens with 4 samples.

Results

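The genes described here are 144 genes named for serine/threonine, tyrosine and lipid kinases of the MAPK, PI3K, AKT, CDK and related families. The rule that picked them reads gene symbols and no event numbers, and they make up 1.46% of the 9885 genes in a table that gives a number of events for each gene in each RNA-seq library. By symbol they fall into 17 families, from 18 genes named STK to 4 each named MARK, MAP4K or for a receptor tyrosine kinase (FGFR1, INSR and the non-receptor genes FGFR1OP and FGFR1OP2). The choice by symbol also took 20 genes that encode no kinase catalytic subunit, such as regulatory subunits, scaffolds and the antisense RNAs MAP3K14-AS1 and PRKCQ-AS1, and 124 genes that are named for one. The 124 are called catalytic below, although they include the pseudokinase gene STK40.

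The 4 libraries were made from cultured cells of the human ovarian cancer line HeyA8, with 1 library per line, so no difference below has a replicate check and none was tested. A8 is the parental HeyA8 line, which derives from Hey cells. A8i cells stably carry a short hairpin RNA against ECM1, a gene for a glycoprotein of the extracellular matrix, which was delivered by lentivirus and selected with puromycin. Both isoform lines were made from A8i: A8i-A, the ECM1a line, stably expresses cDNA of the isoform ECM1a, and A8i-B, the ECM1b line, that of ECM1b (numbers given "with ECM1a" and "with ECM1b" are of these lines), after GFP sorting or growth in zeocin or hygromycin. The hairpin and the puromycin selection are therefore shared by these 3 lines and absent from A8, and a control line with a scrambled hairpin was not analysed here. The comparisons address how the event numbers of the kinase genes differ once ECM1 is silenced and once either isoform is expressed again.

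Kinases pass signals on by moving a phosphate from ATP to a protein or a lipid. In the MAPK cascade a receptor activates RAS, and MAP3Ks then phosphorylate MAP2Ks, which phosphorylate the MAPKs. MAP4Ks act upstream of the MAP3Ks. In the PI3K pathway a lipid kinase makes PIP3 at the membrane, which recruits AKT, and AKT in turn raises the activity of MTOR and the ribosomal protein S6 kinases. CDKs drive the cell cycle and transcription together with cyclins. Many kinase genes give rise to several mRNA isoforms, and the kinase or docking domains that these isoforms keep or lose can alter the enzyme.

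An event number is a whole number between 0 and 32 and is not an expression level. The sources used here do not name the kind of event, so a higher number says only that more events of a gene were listed. For the targeted gene, ECM1, the table gives 2 events in A8 and the same number in the other lines, which is no check of the silencing. Of the epithelial ovarian cancer markers, PAX8 (7 to 11 events) and KRT8 (5 to 7 events) were listed with several events in every library. KRT18 had 1 event throughout, KRT7 1 or 2, MSLN 1 to 3 and WT1 0 or 1. EPCAM was listed at 0 throughout, and KRT19 and MUC16 had no row. The 7 listed epithelial markers summed to 16 events in A8i and 17 to 23 elsewhere. Of the mesenchymal markers, FN1 had 9 to 11 events and VIM 1 to 3, and CDH2 had no row. Of the immune and endothelial markers, only CD14 had a row, with 1 event in A8i-B and 0 in the other lines. Over all genes A8i stood apart with the fewest events, 20535 against 22691 to 24513 in the other libraries, and the part of this gap in the kinase results was not tested.

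The kinase genes together were listed with 383 events in A8, 305 in A8i, 362 with ECM1a and 354 with ECM1b. A8i was the lowest library and A8 the highest. The A8i sum was 79.6% of that of A8 (95% exact Clopper-Pearson interval, 68.3 to 92.8%), beside 83.8% over all genes. That of A8i-A was 118.7% of A8i (101.6 to 138.7%; all genes, 110.5%), and that of A8i-B was 116.1% of A8i (99.3 to 135.7%; all genes, 118.0%). Between the isoform lines the ratio of A8i-A to A8i-B was 102.3% (88.1 to 118.7%; all genes, 93.6%). The last 2 intervals include 100%, and each of the 4 intervals includes the ratio over all genes. Only counting error is covered, with each event treated as independent of the rest. As a share of the library total, the kinase genes held 1.56% of the events in A8, 1.49% in A8i, 1.60% with ECM1a and 1.46% with ECM1b, and on this scale A8i-B and not A8i was the lowest. In these bulk libraries, an event number does not show how many cells used an event or how much of it each cell had.

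At least 1 event was listed for 124 of the 144 kinase genes in A8 (86.1%, against 82.2% of all genes). In A8i this number was 109 (75.7%, against 73.7%), with ECM1a 122 (84.7%, against 78.9%) and with ECM1b 118 (81.9%, against 81.6%). An event in all 4 libraries was listed for 101 genes (70.1%, against 60.6% of all genes). PRKCA, which encodes protein kinase C alpha, and STK39, which encodes the ion transport regulator SPAK, were listed at 0 in every library. The median over the kinase genes was 2 events in A8, A8i-A and A8i-B and 1 in A8i, and the highest number was 15. Over all genes the median was 2 events in A8 and A8i-B and 1 in A8i and A8i-A.

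Ties left out, A8i alone had the lowest sum in 11 of the 17 families and the highest in none, whereas A8 alone had the highest sum in 7 families and the lowest in none. The gap between A8 and A8i was widest in relation to size in the calcium/calmodulin-dependent kinases, with 25 events in A8, 10 in A8i, 12 with ECM1a and 14 with ECM1b, and in the MAP2Ks, with 16, 7, 12 and 9 events in the same order. Of the calcium/calmodulin-dependent kinase events, CAMK2G alone held 14 in A8 and 3 in A8i, which is most of that family's gap. The 9 catalytic MAPK genes were level, with 20 events in A8, 20 in A8i, 20 with ECM1a and 21 with ECM1b. The STK genes had the fewest events in A8i-B (44, against 50 to 55 in the other lines), and the DYRK kinases (3 events) and the catalytic protein kinase C and D genes (4 events, against 6 or 7 in the other lines) had the fewest in A8i-A. The count of families depended on the library totals. With each library scaled to the mean total, A8i alone was lowest in 6 families and highest in 3, and A8 alone was lowest in 5 and highest in 4. The calcium/calmodulin-dependent kinases (23.5 scaled events in A8, 11.2 in A8i, 12.2 with ECM1a and 13.3 with ECM1b) and the MAP2Ks (15, 7.8, 12.2 and 8.5) kept their order, as did the low STK sum in A8i-B (41.7) and the high MAP3K sums in A8i-A (28.4) and A8i-B (24.7), whereas the 11 genes with MAPK symbols, with 26 events in A8 and 25 in A8i before scaling, turned to 24.4 in A8 and 28 in A8i.

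**Figure D1:**
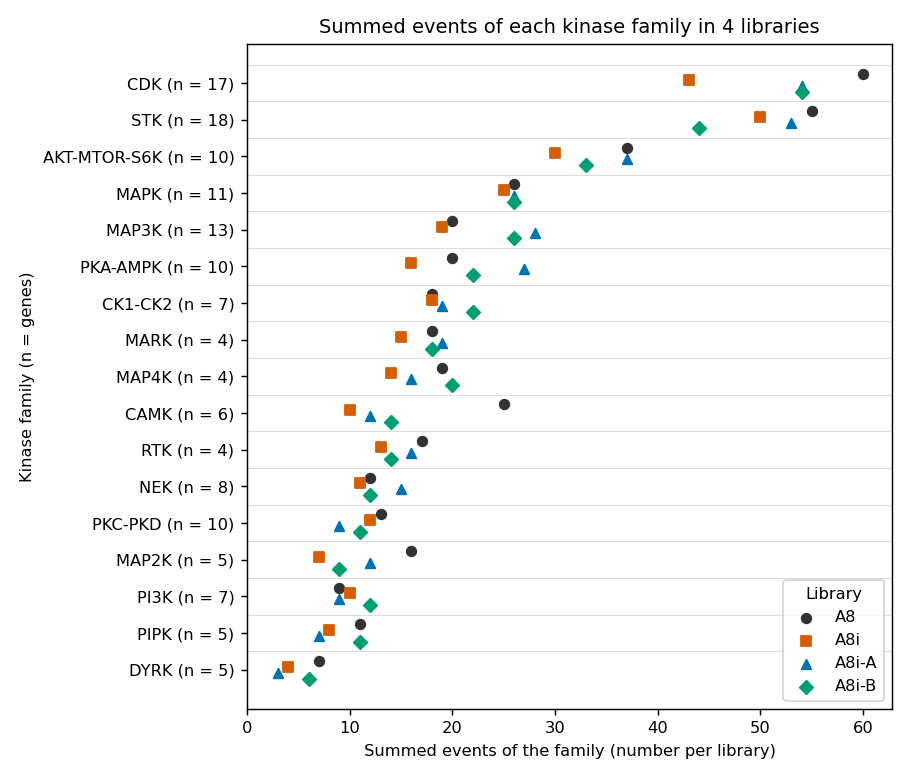
Summed number of events of each kinase family (horizontal axis) in the 4 libraries, 1 marker per library, with the number of genes of each family beside its name. A8i alone lies lowest in 11 of the 17 families (6 once the libraries are scaled to the mean total), and the calcium/calmodulin-dependent kinases run from 10 events in A8i to 25 in A8. Of these kinases, CAMK2G alone runs from 3 events in A8i to 14 in A8.

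Among the receptors, FGFR1, which encodes a receptor for fibroblast growth factors, had 11 events in A8, 9 in A8i, 14 with ECM1a and 10 with ECM1b. It was the kinase gene with the second most events over the 4 libraries and was highest in the ECM1a line. It spans 38257733 to 38326352 of chromosome 8 (GRCh37, reverse strand; further positions are of this build), with 58 annotated transcripts. INSR, the insulin receptor gene, had 1 event in A8 and 0 in the other lines, and EGFR had no row. FGFR1OP2, which encodes a fusion partner of FGFR1 and no receptor, had 3 events in A8, A8i and A8i-B and 1 in A8i-A.

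In the PI3K family the catalytic subunits PIK3CB and PIK3CD were nearly level. PIK3CB had 3 events in A8, A8i and A8i-B and 2 in A8i-A, and PIK3CD had 2 events in A8, A8i and A8i-A and 3 in A8i-B. PIK3C2A, a class II enzyme that acts in membrane traffic, had 0 events in A8 and 2 in each of the 3 lines with the hairpin. It was the only kinase gene that was missing from A8 and listed in all the other libraries. PIK3R2, which encodes a regulatory subunit, showed the reverse with 2 events in A8, 0 in A8i, and 1 in A8i-A and A8i-B. Of the enzymes that phosphorylate phosphatidylinositol phosphates, PIP5K1A had 4 or 5 events in every library, PIP4K2C had 4 events in A8, 3 in A8i, 2 with ECM1a and 2 with ECM1b, and PIP4K2B was listed in A8i-B alone, with 2 events.

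AKT1 and AKT2, the kinases whose phosphorylation the study followed, were both rich in events. AKT1 (chromosome 14, 105235686 to 105262088, reverse strand) had 5 events in A8, 7 in A8i, 8 with ECM1a and 6 with ECM1b. AKT2 (chromosome 19, 40736224 to 40791443, reverse strand) had 9 events in A8, 7 in A8i, 10 with ECM1a and 12 with ECM1b. A8i thus had 2 more events of AKT1 than A8 and 2 fewer of AKT2, and AKT2 stood highest in the ECM1b line. Neither gene reached a 2-fold difference in any comparison.

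Downstream of AKT, MTOR was listed with 1 event in A8 and A8i-A and 2 in A8i and A8i-B. The S6 kinase gene RPS6KB1 had 1 event in A8, A8i-A and A8i-B and 0 in A8i, and RPS6KB2 had 5 or 6 events throughout. RPS6KA4, which encodes the histone H3 kinase MSK2, had 5 events in all 4 libraries. RPS6KC1 and RPS6KL1, which encode relatives of the S6 kinases, were highest in A8. RPS6KC1 had 5 events in A8, 2 in A8i, 3 with ECM1a and 1 with ECM1b, and RPS6KL1 had 3 events in A8 and 0 in the other 3 lines.

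At the top of the MAPK cascade, MAP4K4 had 11 events in A8, 9 in A8i, 9 with ECM1a and 12 with ECM1b, and MAP4K2 had 6 events in A8, A8i-A and A8i-B and 4 in A8i. The MAP3K genes summed to more events in the isoform lines than in A8 or A8i, with 20 events in A8, 19 in A8i, 28 with ECM1a and 26 with ECM1b. MAP3K5, the stress kinase ASK1, had 0 events in A8 and A8i and 2 in A8i-A and A8i-B. MAP3K14, the NF-kappaB-inducing kinase, had 0 events in A8, 1 in A8i, 2 with ECM1a and 0 with ECM1b. MAP3K10, a mixed lineage kinase gene, had 2 events in A8, A8i and A8i-A and 5 in A8i-B. MAP3K12, another gene of that group and a JNK activator, had 5 events in A8, 3 in A8i, 6 with ECM1a and 5 with ECM1b. MAP3K4, which lies upstream of p38 and JNK, had 3 events in A8 and A8i-B and 4 in A8i and A8i-A. MAP3K7, the TGF-beta-activated kinase TAK1, had 3 events in every library, while MAP3K7CL, a gene with a similar symbol and no kinase domain, had 2 events in A8i-A and 0 elsewhere.

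The MAP2K genes differed among themselves. MAP2K2, the ERK-activating kinase MEK2, had 3 events in every library. MAP2K3, which activates the p38 MAPKs, had 5 events in A8, 1 in A8i, 4 with ECM1a and 1 with ECM1b, so that A8 and the ECM1a line were high and A8i and the ECM1b line low. MAP2K4, which activates JNK and p38, had 3 events in A8, 0 in A8i, 1 with ECM1a and 0 with ECM1b, the same order on a lower level. MAP2K7, a JNK activator, had 4 events in A8, 2 in A8i, 3 with ECM1a and 3 with ECM1b, and MAP2K5, upstream of ERK5, had 1 event in A8, A8i and A8i-A and 2 in A8i-B. Both MAP2K3 (21187984 to 21218544) and MAP2K4 (11924146 to 12047147) lie on chromosome 17, forward strand.

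Among the MAPKs, the JNK genes MAPK8 and MAPK9 lay on opposite sides. MAPK8 had 3 events in A8, 1 in A8i, 2 with ECM1a and 2 with ECM1b. MAPK9 (chromosome 5, 179660143 to 179719099, reverse strand) had 1 event in A8, 5 in A8i, 3 with ECM1a and 3 with ECM1b, and both isoform lines thus lay between A8 and A8i. MAPK3, which encodes ERK1, had 3 events in A8, 5 in A8i, 5 with ECM1a and 4 with ECM1b. Of the p38 genes, MAPK14 had 3 events in A8, 2 in A8i, 1 with ECM1a and 1 with ECM1b, MAPK12 had 5 events in A8, 5 in A8i, 6 with ECM1a and 7 with ECM1b, MAPK11 was listed in A8 alone and MAPK13 in A8i-B alone, each with 1 event. MAPK8IP3, a scaffold for JNK, had 4 or 5 events.

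The subunits of AMPK, the kinase that senses the energy state of a cell, included genes that stood high in a single isoform line. PRKAB2, a regulatory subunit that binds glycogen, had 2 events in A8, 2 in A8i, 8 with ECM1a and 1 with ECM1b. PRKAA2, a catalytic subunit, had 0 events in A8, 0 in A8i, 1 with ECM1a and 5 with ECM1b. The first thus stood apart in the ECM1a line and the second in the ECM1b line. Both lie on chromosome 1, PRKAB2 at 146626685 to 146644129 (reverse strand) and PRKAA2 at 57110987 to 57181008 (forward strand). PRKAG1, another regulatory subunit, had 9 events in A8, 6 in A8i, 8 with ECM1a and 10 with ECM1b, whereas PRKAB1 and PRKAG2 had 1 event in every library and PRKAA1 1 or 2. STK11, the AMPK-activating kinase LKB1, had 3 events in A8, 6 in A8i, 4 with ECM1a and 3 with ECM1b. In PKA, the kinase activated by cyclic AMP, the regulatory subunit gene PRKAR1A had 3 events in A8 and A8i-A and 1 in A8i and A8i-B.

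CAMK2G, a subunit of calcium/calmodulin-dependent kinase II, showed the widest range of all the kinase genes, 11 events. It had 14 events in A8, 3 in A8i, 3 with ECM1a and 7 with ECM1b, so that neither isoform line came close to the parental line. The gene spans 75572259 to 75634349 of chromosome 10 (reverse strand) and has 27 annotated transcripts. Its paralog CAMK2D, with 38 annotated transcripts, had 3 events in every library. CAMK1 had 3 events in A8 and 1 in each of the other lines, CAMKK1, which encodes a kinase upstream of it, had 3 events in A8, 1 in A8i, 2 with ECM1a and 1 with ECM1b, and CAMKK2 had 1 event in A8 and A8i-B and 2 in A8i and A8i-A.

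Protein kinases C and D had few events. PRKCD had 2 events in A8 and A8i-B and 1 in A8i and A8i-A, and PRKD2 had 2 events in A8, A8i and A8i-B and 0 in A8i-A. PRKCSH, the member of this symbol group with the most events (4 in A8 and 3 in each other line), encodes a subunit of a glucosidase and no kinase.

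CDK10, which encodes the partner of cyclin M, had the most events of all the kinase genes and hardly varied, with 15 events in A8, A8i-A and A8i-B and 14 in A8i. The cell-cycle kinase genes CDK1, CDK2 and CDK4 varied by at most 2 events. CDK1, the mitotic kinase, had 2 to 4 events, CDK2 had 2 or 3, and CDK4, the G1 kinase, had 4 to 6. Of the CDKs that follow, CDK12, CDK20 and CDK16 varied more widely, and CDK8, CDK19 and CDKL3 did not. CDK12, which phosphorylates RNA polymerase II, had 6 events in A8, 3 in A8i, 9 with ECM1a and 3 with ECM1b. CDK20 had 5 events in A8, 0 in A8i, 3 with ECM1a and 3 with ECM1b, so that both isoform lines lay between A8i and A8. CDK8, a kinase of the Mediator complex, had 2 events in A8, 1 in A8i, 1 with ECM1a and 3 with ECM1b, and its paralog CDK19 had 2 events in A8 and 1 in each other line. CDKL3 was listed with 2 events in A8 and A8i-B and 0 in A8i and A8i-A. CDK16, in contrast, had 4 events in A8 and 7 in each of the lines with the hairpin. The position of CDK12 is chromosome 17, 37617739 to 37723812 (forward strand), and that of CDK20 is chromosome 9, 90581356 to 90589668 (reverse strand).

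Among the STK genes, STK36, a kinase known for the assembly of motile cilia, had 8 events in A8, 1 in A8i, 4 with ECM1a and 8 with ECM1b, and the ECM1b line thus stood level with the parental line. Its position is chromosome 2, 219536792 to 219567439 (forward strand). STK25, a kinase of the Golgi and of cell polarity, had 10 events in A8, 14 in A8i, 12 with ECM1a and 5 with ECM1b, with the ECM1b line alone far below the rest. It lies farther along the same chromosome, at 242432085 to 242449145 (reverse strand). Its relative STK24 had 1 event in A8, 3 in A8i, 2 with ECM1a and 1 with ECM1b, and STK26 had 1 event throughout. STK40, a pseudokinase gene, had 6 events in A8, 9 in A8i, 9 with ECM1a and 5 with ECM1b. STK33 and STK38L, which encodes an NDR kinase, each had 3 events in A8, 1 in A8i, 3 with ECM1a and 2 with ECM1b. The Hippo kinase genes STK3 and STK4 had at most 2 events.

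In the remaining families most genes had few events. DYRK1A had 3 events in A8, 1 in A8i, 1 with ECM1a and 2 with ECM1b, and DYRK3 had 1 event in A8 and A8i, 0 with ECM1a and 2 with ECM1b, whereas DYRK2 and DYRK4 had 1 event throughout. All 7 casein kinase genes had an event in every library. CSNK1D had 4 or 5 events and CSNK2A1 3 or 4, and CSNK1A1, which takes part in WNT signalling, had 1 event in A8 and A8i, 2 with ECM1a and 3 with ECM1b. In the NEK family, which acts at centrosomes and cilia, NEK3 had 4 or 5 events and NEK1 2 or 3, while NEK9 had 1 event in A8 and A8i, 3 with ECM1a and 2 with ECM1b. The microtubule affinity regulating kinase gene MARK2 had 6 events in every library, and MARK3 had 7 to 9.

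Silencing was addressed by A8i against A8. A gene was counted as past a size rule when it differed by at least 2 events and at least 2-fold on events plus 1. By this rule 16 kinase genes (11.1%) had fewer events in A8i, against a background of 10.2% of all genes, and 3 (2.08%) had more, against 3.46%. The shares were near the background in both directions. The lowest log2 ratios of events plus 1 were those of CDK20, STK36, MAP2K4, RPS6KL1 and CAMK2G, followed by MAP2K3, CDKL3 and PIK3R2 with equal ratios, and the 3 with more events were MAPK9, PIK3C2A and STK24. Of the 78 events by which A8i lay below A8, CAMK2G and STK36 accounted for 18, and without both genes the A8i sum was 83.4% of that of A8. Without STK25 and MAPK9, which differed most the other way, it was 76.9%. Genes with more events made up 15.8% of those past the rule, but 40.0% after each library had been scaled to the mean total (over all genes, 25.4% and 47.6%). After scaling, 6 kinase genes (4.17%, against 4.18% of all genes) had fewer events and 4 (2.78%, against 3.79%) had more.

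Re-expression of ECM1a in silenced cells was addressed by A8i-A against A8i, and that of ECM1b by A8i-B against A8i. These comparisons share the A8i library, so a low number in A8i enters both. In A8i-A, 11 kinase genes (7.64%) had more events than in A8i, against 8.35% of all genes, and 2 (1.39%) had fewer, against 4.82%. In A8i-B, 11 kinase genes (7.64%) had more events, against 10.7%, and 2 (1.39%) had fewer, against 3.96%. The highest log2 ratios in A8i-A were those of CDK20, then PRKAB2, MAP3K5 and MAP3K7CL with equal ratios, then CDK12, MAP2K3 and STK36 with equal ratios, and the 2 genes with fewer events were PRKD2 and FGFR1OP2. In A8i-B the highest were PRKAA2, STK36, CDK20 and STK11IP, then CDKL3, MAP3K5 and PIP4K2B with equal ratios, and STK25 and STK24 had fewer events. With scaled libraries, 7 kinase genes (4.86%, against 5.79% of all genes) had more events in A8i-A and 2 (1.39%, against 4.83%) had fewer. In A8i-B on this scale, 4 (2.78%, against 4.05%) had more and 3 (2.08%, against 4.25%) had fewer. Genes with more events in A8i-B made up 57.1% of those past the rule in place of 84.6% (over all genes, 48.8% in place of 73.0%).

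With A8 in place of A8i as the reference, a choice made after the values had been seen, 8 kinase genes (5.56%) had more events in A8i-A (background, 4.83%) and 9 (6.25%) fewer (7.94%). In A8i-B, 8 (5.56%) had more (6.16%) and 10 (6.94%) fewer (6.49%). These comparisons share the A8 library. Above A8 in A8i-A were MAP3K14, MAP3K5, MAP3K7CL, MAPK9, NEK9, PIK3C2A, PRKAB2 and STK17A, and below it CAMK1, CAMK2G, CDKL3, DYRK1A, FGFR1OP2, MAP2K4, MAPK14, PRKD2 and RPS6KL1. Above A8 in A8i-B were CSNK1A1, MAP3K10, MAP3K5, MAPK9, PIK3C2A, PIP4K2B, PRKAA2 and STK11IP, and below it CAMK1, CAMKK1, CDK7, MAP2K3, MAP2K4, MAPK14, NEK4, PRKAR1A, RPS6KC1 and RPS6KL1.

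The isoforms were compared directly in A8i-A against A8i-B. The rule was passed by 9 kinase genes (6.25%) with more events in A8i-A, against 5.13% of all genes, and by 10 (6.94%) with fewer, against 8.31%. The highest log2 ratios were those of PRKAB2, MAP3K14, MAP3K7CL, STK17A, CDK12 and MAP2K3, and STK25, with 7 more events in A8i-A, had as large a difference as PRKAB2. The ratio of the sums was 98.3% without STK25 and PRKAB2, in place of 102.3% with all kinase genes. STK17A, an apoptosis-related kinase gene, had 2 events in A8i-A and 0 in A8i-B. The lowest ratios were those of STK11IP, PRKAA2, CDKL3, DYRK3, PIP4K2B and PRKD2. STK11IP, which encodes a protein that binds LKB1, had 0 events in A8i-A and 3 in A8i-B. Of the genes past the rule 47.4% had more events in A8i-A, and 81.8% did with scaled libraries (over all genes, 38.2% and 61.7%). With scaled libraries 9 kinase genes (6.25%, against 5.14% of all genes) had more and 2 (1.39%, against 3.2%) had fewer.

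**Figure D2:**
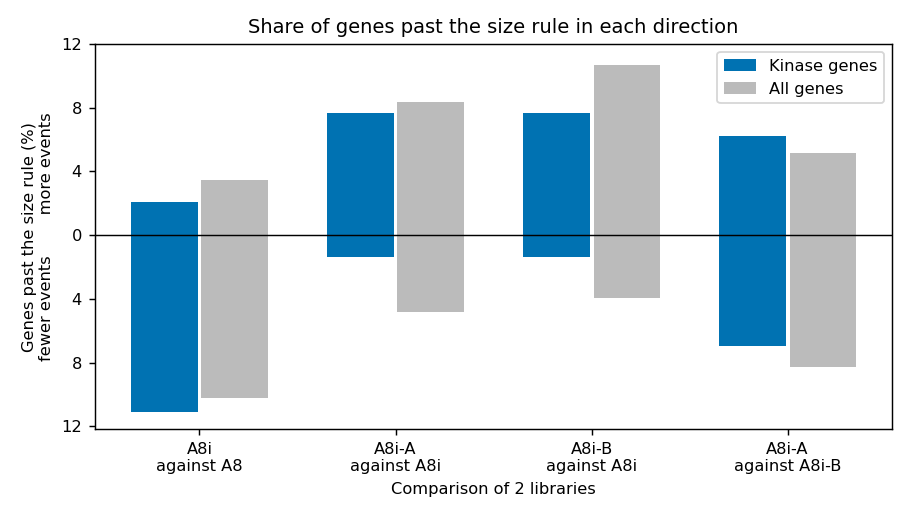
Percentage of genes past the size rule (at least 2 events and at least 2-fold apart on events plus 1) with more events (upward) or fewer events (downward) in the first-named library, for the 144 kinase genes and for all 9885 genes. The shares of the kinase genes run from 1.39% to 11.1%, those of all genes from 3.46% to 10.7%.

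A list of core genes of the MAPK and PI3K-AKT pathways held 14 genes that had a row, with 48 events in A8, 46 in A8i, 53 with ECM1a and 51 with ECM1b. In A8i against A8, MAPK9 had more events by the rule and MAPK8 and PIK3R2 fewer, and none of the 14 passed it in the comparisons of A8i-A or A8i-B with A8i or with each other. Over all genes 3.46% had more and 10.2% fewer events in A8i than in A8. In A8i-A against A8i these shares were 8.35% and 4.82%, and in A8i-B against A8i 10.7% and 3.96%. In A8i-A against A8i-B they were 5.13% and 8.31%. With 14 genes, neither these counts nor the lack of any says much. The core list was chosen with results of these data known.

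Across the 4 planned comparisons, 36 of the 144 kinase genes (25%, against 30.1% of all genes) passed the rule at least once. The other 108 never did, although 24 of these had at least 5 events in some library, among them CDK10, AKT1, AKT2, FGFR1 and MARK3. A range of at least 5 events over the libraries was found for 9 kinase genes, CAMK2G, STK25, STK36, PRKAB2, CDK12, CDK20, PRKAA2, FGFR1 and AKT2, or 6.25% of the kinase genes against 7.52% of all genes. Ranges of at least 3 events were found for 16.7% of the kinase genes and 24.6% of all genes.

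**Figure D3:**
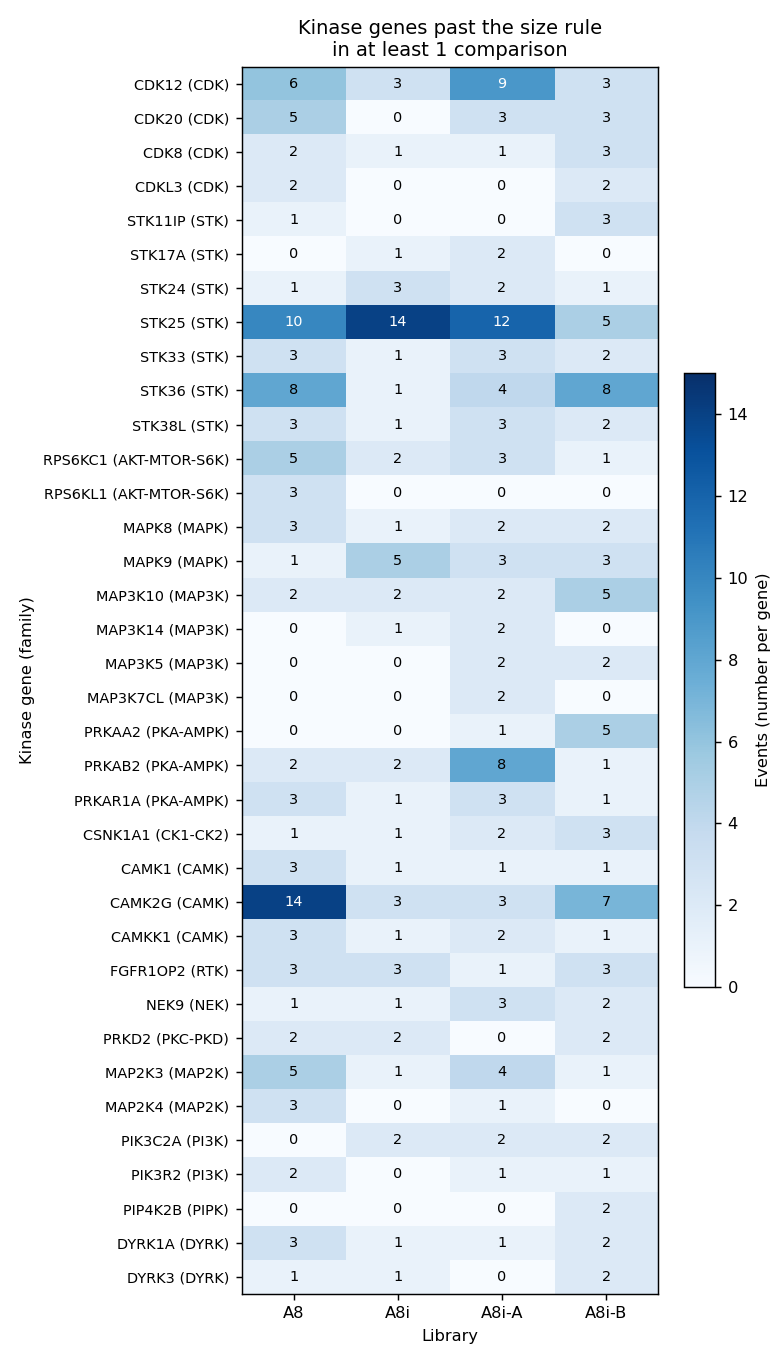
Number of events of the 36 kinase genes past the size rule in at least 1 of the 4 planned comparisons (rows, with the family in brackets) in the 4 libraries (columns), with darker blue for more events and the number printed in each cell. CAMK2G runs from 3 events in A8i and A8i-A to 14 in A8, PRKAB2 reaches 8 events in A8i-A alone, and PRKAA2 reaches 5 in A8i-B alone.

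The same number above 0 in all 4 libraries was listed for 22 kinase genes (15.3%, against 13.6% of all genes). In 15 of them it was 1 event, as for the PKA catalytic subunit gene PRKACA, the neuronal kinase gene CDK5 and the casein kinase gene CSNK1E. In the others the number was higher, with 6 events for MARK2, 5 for RPS6KA4, 3 for CAMK2D, MAP2K2, MAP3K7 and CSNK1G3 and 2 for MAP3K3. A8 alone held the highest number for 33 kinase genes (22.9%, against 16.6% of all genes), and 10 of these (6.94% of the kinase genes, against 4.3% of all genes) were listed in A8 and in no other library, all but RPS6KL1 with 1 event. The number listed in a single other library was 2 for A8i (1.39%, against 2.37%), 6 for A8i-A (4.17%, against 3.4%) and 3 for A8i-B (2.08%, against 4.08%).

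All 144 genes were found in the GENCODE v44 annotation of GRCh37 by their Ensembl identifiers, 142 of them as protein-coding. They lie on many chromosomes, led by chromosome 1 with 16 genes, chromosome 19 with 15 and chromosome 17 with 14. The kinase genes have a median of 13 annotated transcripts, against 9 for all matched genes, and their longest transcripts have a median of 4815 nt, against 3852 nt. Across the kinase genes, which are not independent replicates, the events summed over the libraries went with the number of annotated transcripts (Spearman's rho = 0.419, Pearson's r = 0.481, n = 144) and hardly with the length of the longest transcript (rho = 0.061). Over all matched genes the values were 0.466 and 0.017. In the 43 kinase genes with 17 or more transcripts the median sum was 10 events, and in the 42 with at most 8 it was 4. Only 3 kinase genes (2.08%, against 4.24% of all genes) had more events in some library than annotated transcripts. These were PRKAA2, with 5 events and 1 transcript, PRKAB2, with 8 events and 3 transcripts, and STK40, with 9 events and 8 transcripts.

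**Figure D4:**
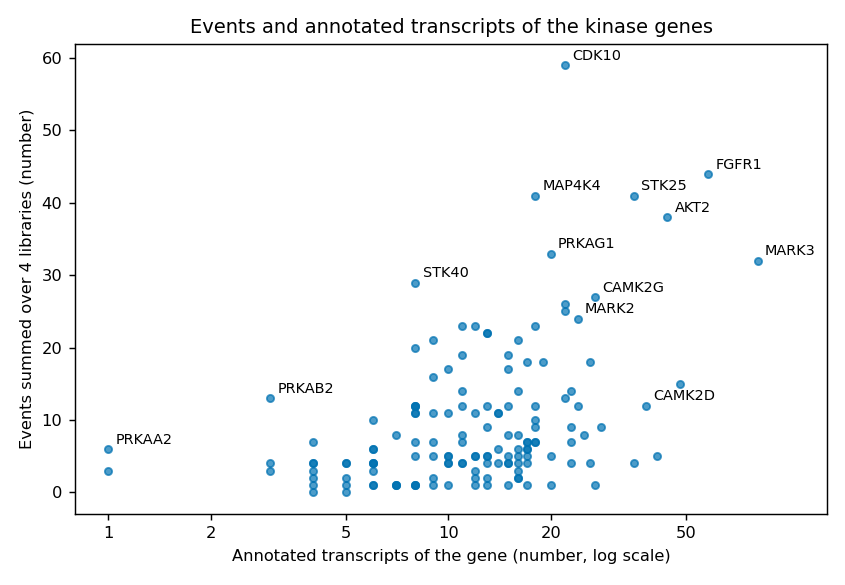
Number of events summed over the 4 libraries (vertical axis) against the number of annotated transcripts on a log scale (horizontal axis), 1 point per kinase gene. CDK10 and FGFR1 lie at the top, and PRKAA2 with 1 transcript and PRKAB2 with 3 lie at the left with more events in 1 library than transcripts.

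Other genes of these pathways were followed in lists. Beside the counts below, 3.46% of all genes had more and 10.2% fewer events in A8i than in A8, 8.35% more and 4.82% fewer in A8i-A than in A8i, and 10.7% more and 3.96% fewer in A8i-B than in A8i. The lists are too short, with 6 to 18 listed genes each, to set such counts apart from these shares. Of 21 genes of the PI3K-AKT-MTOR pathway that are not kinase genes of the families above, 9 had a row, and by the rule 2 of them (TSC1 and RICTOR) had fewer and 1 (TSC2) more events in A8i than in A8. Relative to A8i, 1 of the 9 had more events with ECM1a, 3 had more with ECM1b, and none had fewer. TSC1, which encodes a brake on MTOR, had 5 events in A8, 1 in A8i, 4 with ECM1a and 3 with ECM1b, and its partner TSC2 had 1 event in A8, 4 in A8i, 2 with ECM1a and 5 with ECM1b. RICTOR, a subunit of the MTOR complex that phosphorylates AKT, had 3 events in A8, 0 in A8i, 1 with ECM1a and 2 with ECM1b. Of 19 RAS, RAF and small GTPase genes 17 had a row, and 2 (ARAF and RRAS2) had more events in A8i than in A8 and none fewer. In A8i-A none passed the rule against A8i, and in A8i-B 1 had more events and 1 fewer. ARAF had 0 events in A8, 2 in A8i, 2 with ECM1a and 0 with ECM1b, while HRAS, CDC42, RAC1 and SHC1 had the same number in every library.

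Of 13 MAPK phosphatase genes 6 had a row, and 1 had more events in A8i than in A8, 1 in A8i-A than in A8i and 1 in A8i-B than in A8i, with none fewer. DUSP22 had 1 event in A8 and 3 in each line with the hairpin, and DUSP16 had 1 event in A8, 0 in A8i, 4 with ECM1a and 2 with ECM1b. The 12 listed genes of protein phosphatase 2A, which removes phosphate from AKT, had 29 events in A8, 28 in A8i, 27 with ECM1a and 32 with ECM1b, and none passed the rule between A8 and A8i. In A8i-A 1 had more events than in A8i, and in A8i-B 1 had more and 1 fewer. The 18 listed cyclin and CDK inhibitor genes had 1 gene above and 1 below A8 in A8i, none above and 1 below A8i in A8i-A, and 2 above and 2 below A8i in A8i-B. CCNL1, which encodes a cyclin that pairs with CDK11, had 12 events in A8, 13 in A8i, 13 with ECM1a and 6 with ECM1b. CCNT2, a partner of CDK9, had 3 events in A8, 0 in A8i, 0 with ECM1a and 2 with ECM1b.

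A list of genes of focal adhesions and of Rac signalling, pathways whose proteins FAK, paxillin and Rac the study followed, had 47 events in A8, 41 in A8i, 40 with ECM1a and 44 with ECM1b over 13 listed genes. PTK2, which encodes FAK, had 11 events in A8, 12 in A8i, 10 with ECM1a and 10 with ECM1b, and PXN, which encodes paxillin, had 10 events in A8, 10 in A8i, 13 with ECM1a and 9 with ECM1b. By the rule 1 of the 13, PAK1, an effector of Rac, had fewer events in A8i than in A8 and none had more, and 1 had more events in A8i-B than in A8i. PAK1 was listed with 3 events in A8, 1 in A8i, 2 with ECM1a and 3 with ECM1b. Of the 7 listed MAPK targets, FOS (2 events in A8, 0 in A8i, 1 with ECM1a and 2 with ECM1b) and MAPKAPK5 (5, 2, 3 and 5 events in the same order) had fewer events in A8i than in A8. In both genes A8i-B stood at the number of A8, and 2 of the 7 had more events in A8i-B than in A8i.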

How the data were processed

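RNA-seq of 4 HeyA8-derived lines was analysed, with 1 library each. Per its methods, the study isolated RNA with TRIzol, trimmed reads with Trim Galore, checked them with FastQC, mapped them to hg19 with TopHat and estimated FPKM with Cufflinks (v2.2.1 in the submitters' processing notes). The submitters' notes also name the mouse build GRCm38, whereas the identifiers in the table are human. The deposited values analysed here are another quantity, the number of events of a gene, in whole numbers. The counting program, the kind of event and any filter are not given in the sources used here. The study gives a range for the amount of sequence obtained, but the depth of each library is unknown.

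The genes were picked by a rule on symbols, and the members and lists were chosen with earlier results of these data known. The comparisons count genes at least 2 events and at least 2-fold apart on (events + 1), beside the share of all 9885 genes. No test was made, since each line has 1 library. The code that applies the size rule was checked on simulated event numbers with known differences. Genes were named as the 6 highest and 6 lowest log2 ratios past the rule in each comparison (ties broken by the larger difference and then by symbol), the 2 genes with the most events in each family and a list of core signalling genes. Values of other genes were added after they had been seen. Gene models came from GENCODE v44 on GRCh37. The number of unused columns is 0. Python 3.11.15, numpy 2.4.6, pandas 2.3.3, scipy 1.17.1 and matplotlib 3.10.9 were used.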

Additional observations from a re-analysis of the deposited data

How the results depend on the processing

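With each library scaled to the mean total, 6 rather than 16 kinase genes had fewer events in A8i than in A8 (4.17%, against 4.18% of all genes). In A8i-A 7 rather than 11 had more than in A8i (4.86%, against 5.79%), and in A8i-B 4 rather than 11 did (2.78%, against 4.05%). In A8i-A 2 rather than 10 had fewer than in A8i-B (1.39%, against 3.2%). Without scaling, the shares of all genes were 10.2%, 8.35%, 10.7% and 8.31% in this order, so they fell as well. As a share of the library total, the A8i sum was 95.1% of that of A8 and the A8i-B sum turned to 98.3% of that of A8i. A minimum of 3 events gave 1 gene with more and 7 with fewer events in A8i against A8, 5 and 0 in A8i-A against A8i, 6 and 1 in A8i-B against A8i, and 4 and 4 in A8i-A against A8i-B. The share of all genes at this minimum was not computed. With genes listed in both libraries only, 1 gene had fewer events in A8i-A than in A8i (0.962%, against 4.38% of all such genes). In A8i-B 5 had more than in A8i (4.76%, against 8.62%), and in A8i-A 5 had fewer than in A8i-B (4.55%, against 6.8%). Catalytic members alone gave 1 gene with fewer events in A8i-A than in A8i (background, 4.82% of all genes). At least 2 events in all libraries were listed for 48 kinase genes, and the share of all genes at this setting was not computed. With A8 in place of A8i, an alternative added after the data had been seen, 9 genes (6.25%, against 7.94% of all genes) had fewer events in A8i-A. In A8i-B 10 genes (6.94%, against 6.49%) had fewer, and the sums turned to 94.5% and 92.4%. A pseudocount of 0.5 left each count as it was. With whole numbers of events it could not do otherwise, so it is no check of the rule. Of 60 alternative values, 37 kept their direction and stayed near the reported value, 20 moved and 3 reversed. The 37 include the counts at a pseudocount of 0.5, which could not change. Near was a wide term: it took in any ratio of sums inside its interval, and counts such as 9 and 6. The reversals to 94.5% and 92.4% came from A8 as the reference, which is another comparison. The study gives only a range for the amount of sequence and no depth of each library, so the part of depth in the library totals was not tested.

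No paired analysis was possible because each line has 1 library. The labels give no replicate numbers.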
